A study of Bos taurus with 10 samples.

Results

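A set of 9 trophectoderm genes, which mark the outer cell layer of the early mammalian embryo, was followed through bovine embryos in which H1FOO, the oocyte linker histone, had been knocked down. They are 6 transcription factors (CDX2, GATA3, GATA2, TFAP2A, TFAP2C and MSX2) and 3 keratins (KRT8, KRT18 and KRT19). The genes were taken by symbol from a table of gene expression values. All 9 were found among the 28700 genes with 1 line each, and all 9 were among the 11761 genes tested, those averaging 1 FPKM or more over the 10 libraries. FPKM counts the fragments of a gene relative to its length and to all mapped fragments of the library.

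The poly(A) RNA libraries came from Bos taurus embryos of 4 groups. NC embryos had received negative control small interfering RNAs as zygotes, and KD embryos had received small interfering RNAs against H1FOO at the same stage. Each treatment was collected at the 8/16-cell stage on day 4 after insemination (2 libraries) and at the morula stage on day 5.5 (3 libraries). All 4 groups were therefore injected embryos, and no uninjected embryos were used here. The labels give neither the number of embryos in a library nor whether the replicates were separate collections, so the p-values below measure only the spread between these libraries.

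The trophectoderm forms the fetal part of the placenta and is set apart from the inner cell mass as the embryo compacts and makes its cavity. In outer cells of mouse embryos, the Hippo pathway is quiet and the coactivator YAP1 works with TEAD4 to switch on CDX2 and GATA3. GATA2 and GATA3 are zinc finger factors, TFAP2A and TFAP2C belong to the AP-2 family, and CDX2 and MSX2 are homeobox factors. KRT8, a type II keratin, pairs with the type I keratins KRT18 and KRT19 to form the filaments of simple epithelia. In cattle the inner and outer lineages separate late, and both stages studied here come before the blastocyst.

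The target itself, H1FOO, had lower values in all KD than in all NC libraries of its stage. Its 8/16-cell values were 50.8 and 10.8 FPKM under NC and 0.649 and 0.0736 FPKM under KD (log2 difference -4.22, SE 0.60, limma adjusted p = 0.104). Its morula values were 0.294, 1.05 and 2.17 FPKM under NC and 0.0610, 0.191 and 0.251 FPKM under KD. Libraries summed to between 345464 and 669836 FPKM, with 11103 to 11872 genes at 1 FPKM or above. Markers of the cleavage embryo were present in every library, with 8 of 11 listed genes in the table, all tested, and summed levels of 1004 to 1496 FPKM.

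Levels of the 9 genes differed widely and may be compared between genes because FPKM is scaled by length. In NC morulae the order of the mean levels was TFAP2C, KRT18, MSX2, KRT8, GATA2, CDX2, GATA3, KRT19 and TFAP2A. TFAP2C had the highest level of the 9 in every library and stood above 92.7% to 95.5% of all tested genes. TFAP2A, its relative, stood above only 1.74% to 21.9% of the tested genes in the 10 libraries. From KRT18 down to GATA3, each gene overlapped its neighbour in the order over the NC morula libraries, whereas TFAP2C, KRT19 and TFAP2A did not overlap their neighbours.

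**Figure D1:**
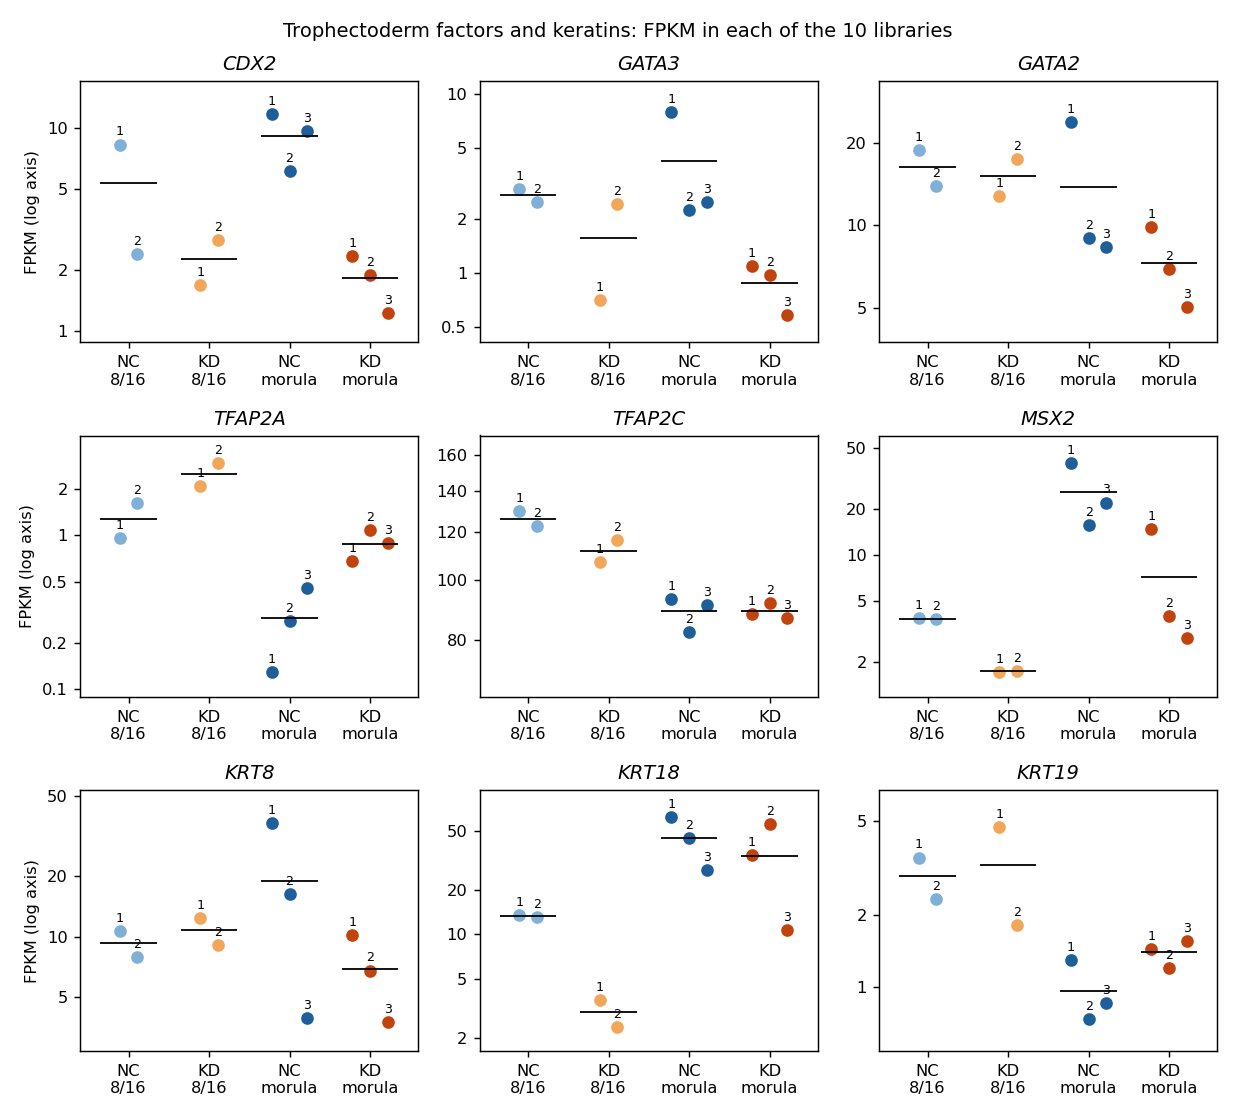
Each panel plots 1 gene, with FPKM on a log axis, 1 point per library labelled by its replicate number, and a line at the group mean for NC and KD embryos at the 8/16-cell (8/16) and morula stages. The 3 KD morula libraries of CDX2, at 1.23 to 2.34 FPKM, sit below the 3 NC morula libraries, at 6.13 to 11.7 FPKM, while TFAP2C lies between 82.4 and 129.5 FPKM in all 10.

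The first comparison asked what the knockdown did at the morula stage, where KD was set against NC. A gene is said to pass at an adjusted p under 0.05. In the fit of group means 0 of the 9 genes passed, against 0.697% of all tested genes (82 of 11761). An unadjusted p under 0.05 was reached by 4 of 9 against 21.2% of all genes, and 6 of 9 differences lay below 0 against 57.9%. The median log2 difference was -0.72 over the 9 genes and -0.08 over all tested genes. With the replicate number as a block, 3 of 9 passed, all lower in KD (CDX2, GATA3 and MSX2), against 8.00% of all genes lower, 3.89% higher and 11.9% in either direction. The labels do not say that same-numbered libraries share a source. The pairing was taken from these same expression values, in which same-numbered KD and NC morula libraries deviated together. The calls with the block rest on that pairing.

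CDX2 is the homeobox factor that in mouse embryos keeps trophectoderm cells from returning to the inner fate. It was 11.7, 6.13 and 9.68 FPKM in NC morulae and 2.34, 1.88 and 1.23 FPKM in KD morulae. The groups did not overlap, and the NC mean of 9.17 ± 2.83 FPKM (SD, n = 3) was 5.05-fold the KD mean of 1.82 ± 0.559 FPKM (SD, n = 3). On the log2(FPKM + 1) scale the difference was -1.83 (SE 0.36, 95% interval -2.64 to -1.03), with a limma adjusted p of 0.0559 and of 0.0151 with the block. The 3 numbered pairs differed by -1.93, -1.31 and -2.26. CDX2 moved from above 41.1% to 55.8% of tested genes in NC morulae to above 10.03% to 21.2% in KD morulae.

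MSX2, a homeobox repressor acting downstream of BMP signals, showed the largest difference of the 9 genes on the log2(FPKM + 1) scale. That scale shrinks differences more at low levels. The ratio of the MSX2 means, 26.0 FPKM in NC and 7.25 FPKM in KD morulae, was smaller than that of CDX2. It was 40.0, 15.8 and 22.1 FPKM in NC morulae and 14.9, 4.02 and 2.86 FPKM in KD morulae. KD replicate 1 came close to the lowest NC library, but the groups did not overlap. The log2 difference was -1.90 (SE 0.47, 95% interval -2.94 to -0.86), with a limma adjusted p of 0.0724 and of 0.00377 with the block. The pairs differed by -1.37, -1.74 and -2.58.

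GATA3, which in mouse embryos acts beside CDX2 under TEAD4, was 7.99, 2.24 and 2.48 FPKM in NC morulae and 1.09, 0.975 and 0.583 FPKM in KD morulae. The groups did not overlap, and NC replicate 1 stood well above the other NC libraries. The log2 difference was -1.32 (SE 0.39, 95% interval -2.18 to -0.45), with a limma adjusted p of 0.103 and of 0.0335 with the block. Without NC morula replicate 1 it was -0.84 in the fit without the block, with an adjusted p of 0.273.

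Left-out libraries moved these calls. Without KD morula replicate 1, CDX2 (limma adjusted p = 0.0420) and MSX2 (limma adjusted p = 0.0184) passed in the fit of group means. With the block and only 2 of the 3 pairs, 0 genes passed without pair 1 or without pair 3, and 1 (MSX2, limma adjusted p = 0.0380) passed without pair 2.

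GATA2 did not pass in either fit. It was 23.9, 8.996 and 8.34 FPKM in NC morulae and 9.86, 6.95 and 5.05 FPKM in KD morulae, and the groups overlapped (log2 difference -0.72, SE 0.36, limma adjusted p = 0.280, with the block 0.0658). NC replicate 1 was again the high library, and without it the difference was -0.26. GATA2 stood at 2.99 to 4.01 times the GATA3 level in NC morulae and at 7.14 to 9.04 times in KD morulae.

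The AP-2 factors did not follow CDX2. TFAP2C was 93.2, 82.4 and 91.1 FPKM in NC morulae and 88.0, 91.9 and 86.8 FPKM in KD morulae, with means of 88.9 ± 5.71 and 88.9 ± 2.66 FPKM (SD, n = 3 each). Its log2 difference of 0.00 had a 95% interval of -0.30 to 0.30 (limma adjusted p = 0.997). TFAP2A, at low levels, was 0.130, 0.277 and 0.457 FPKM in NC morulae and 0.681, 1.08 and 0.885 FPKM in KD morulae. Its KD libraries all lay above its NC libraries, but the difference of 0.55 (SE 0.23, 95% interval 0.04 to 1.05) did not pass (limma adjusted p = 0.205, with the block 0.151). The log2(FPKM + 1) scale compresses a gene at this level.

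None of the 3 keratins passed at the morula stage in either fit. KRT8 was 36.8, 16.2 and 3.95 FPKM in NC morulae and 10.2, 6.80 and 3.77 FPKM in KD morulae (log2 difference -0.99, SE 0.59, limma adjusted p = 0.366, with the block 0.0528). KRT18 was 61.5, 44.5 and 26.9 FPKM in NC morulae and 34.4, 55.7 and 10.6 FPKM in KD morulae (log2 difference -0.59, SE 0.49, limma adjusted p = 0.513). Libraries of KRT8 and of KRT18 overlapped between the treatments. The KRT8 difference was -0.31 without NC replicate 1 and -1.77 without NC replicate 3. Without KD replicate 3 the KRT18 difference was 0.06, so its sign rested on that library. KRT19 was low in all 6 libraries, at 0.734 to 1.3 FPKM in NC and 1.2 to 1.56 FPKM in KD morulae (log2 difference 0.30, SE 0.28, limma adjusted p = 0.563).

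**Figure D2:**
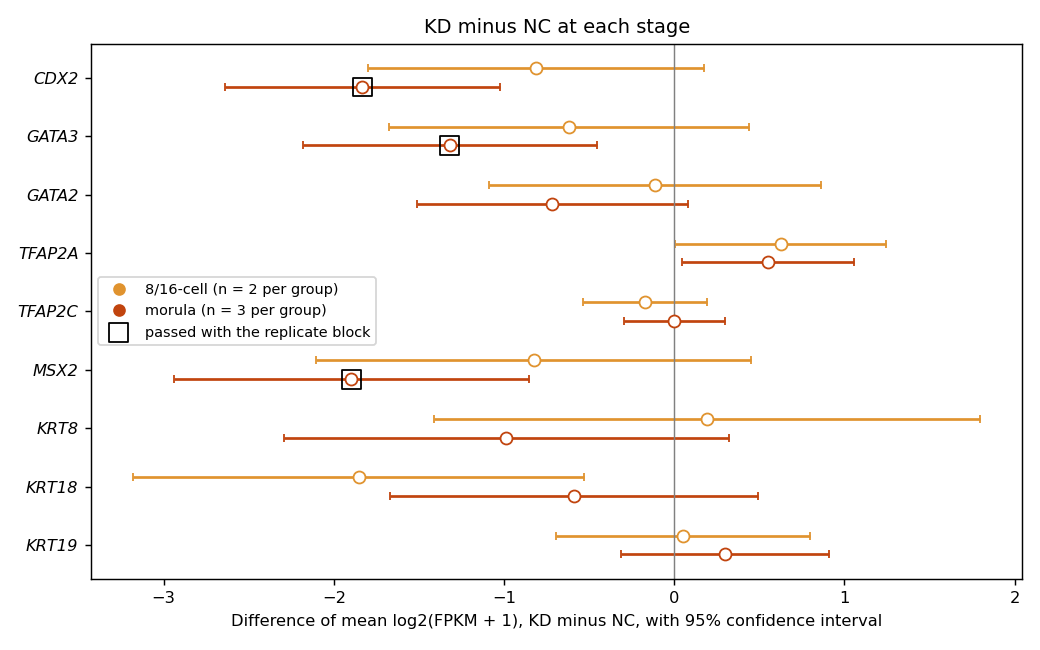
Points are the KD minus NC difference of mean log2(FPKM + 1) for each gene at the 8/16-cell stage (n = 2 per group) and the morula stage (n = 3 per group), with 95% confidence intervals from limma. All points are open because none passed in the fit of group means, and squares mark CDX2, GATA3 and MSX2 at the morula stage, which passed with the replicate block.

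Among the 9 genes, 3 had all KD morula libraries below all NC morula libraries (CDX2, GATA3 and MSX2) against 15.3% of all tested genes, and 1 had them all above (TFAP2A) against 8.44%. The libraries themselves stood in an order. NC morula replicate 1 was the highest NC library for 8 of 9 genes, TFAP2A being the exception. KD morula replicate 3 was the lowest KD library for 7 of 9. Summed over the 9 genes, the NC morula libraries held 277, 177 and 166 FPKM and the KD morula libraries 163, 171 and 113 FPKM.

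Other transcripts moved with these libraries. RN18S1, the 18S ribosomal RNA, was 2704, 2983 and 8611 FPKM in NC morulae and 9053, 8553 and 11581 FPKM in KD morulae (log2 difference 1.23, SE 0.50, limma adjusted p = 0.194, with the block 0.0386). With RN18S1 as a covariate the differences were -1.37 for CDX2 (limma adjusted p = 0.373), -1.66 for MSX2 (0.427) and -0.86 for GATA3 (0.558), and they turned to 0.32 for KRT8 and 0.07 for KRT18. VIM, an intermediate filament protein of mesenchymal and cumulus cells chosen here after its values were seen, was 0.346, 5.4 and 5.42 FPKM in NC morulae and 3.44, 11.0 and 43.3 FPKM in KD morulae.

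The cumulus and granulosa list, of which VIM is a member, had all 20 genes in the table, and its defining receptor FSHR was at 0 in every library. Its summed level was 75.5 to 87.1 FPKM in NC and 67.1 to 142 FPKM in KD morulae, and 100 to 104 FPKM in NC and 168 to 173 FPKM in KD 8/16-cell libraries. These sums lean on SERPINE2, the highest gene of the list by its mean (39.3 FPKM). The mean log2(FPKM + 1) of the list was 0.848, 1.21 and 1.34 in NC morulae and 1.13, 1.55 and 1.83 in KD morulae. At the 8/16-cell stage 8 of its 14 tested genes had all KD above all NC libraries and 1 had them below, against 33.2% of all tested genes in either direction. In morulae 11 of its 14 tested genes had a difference above 0, against 42.0% of all tested genes. Of these markers 0 passed without the block, against 0.697% of all tested genes. With the block 3 rose (VIM, COL1A1 and CYP11A1, limma adjusted p = 0.00881, 0.0460 and 0.00630) and 1 fell (SERPINE2, 0.0254), against 3.89% and 8.00%. RN18S1 was higher in KD in all 3 numbered morula pairs, so the fit with it as a covariate cannot tell its part from that of the treatment. The part of cumulus and granulosa cells in the differences of CDX2, GATA3 and MSX2 was not tested. In whole embryos, fewer cells expressing a gene and less RNA of it in each cell cannot be told apart.

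**Figure D3:**
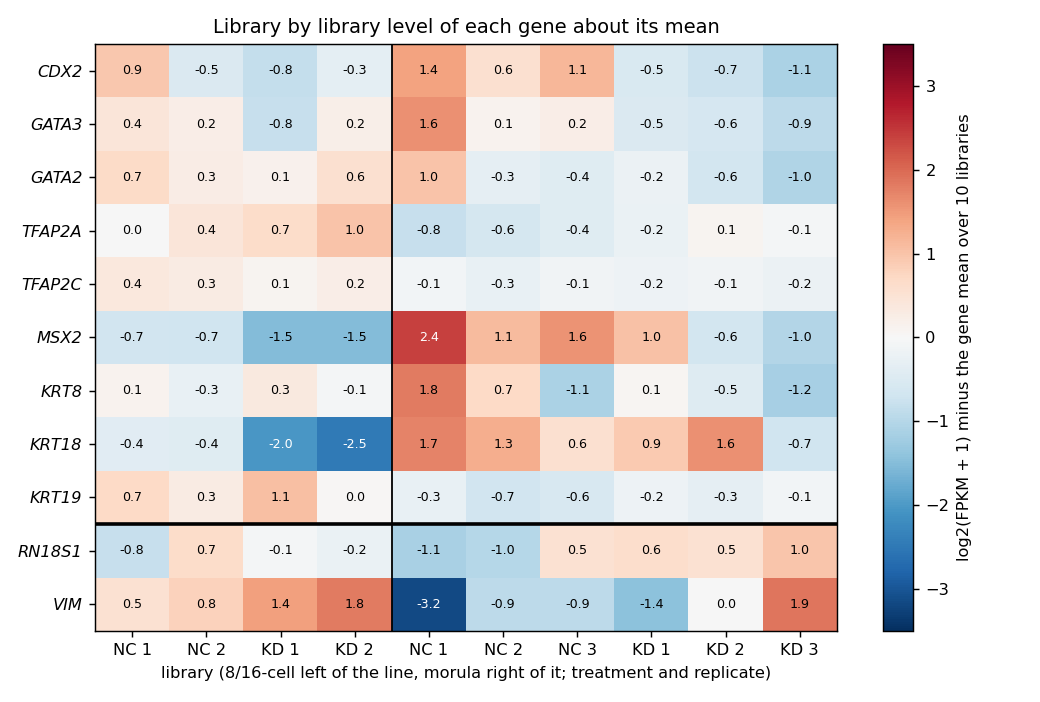
The heat map shows log2(FPKM + 1) minus the mean over the 10 libraries for each of the 9 genes and, below the thick line, for RN18S1 and VIM, with 8/16-cell libraries left and morula libraries right of the vertical line. NC morula replicate 1 has the highest MSX2 (40.0 FPKM) and the lowest VIM (0.346 FPKM), and KD morula replicate 3 has the highest RN18S1 (11581 FPKM) and VIM (43.3 FPKM).

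The second comparison set KD against NC at the 8/16-cell stage, when the embryonic genome has just become active. In the fit of group means 0 of the 9 genes passed, against 0.0170% of all tested genes (2 of 11761), and 2 of 9 (KRT18 and TFAP2A) had an unadjusted p under 0.05 against 4.37% of all genes. With the block 0 passed as well, against 0.0255%. Libraries did not overlap for 4 genes lower in KD (GATA3, TFAP2C, MSX2 and KRT18) and 1 higher (TFAP2A), a share set beside 33.2% of all genes in either direction. The median log2 difference was -0.17 over the 9 genes and 0.01 over all genes.

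KRT18, the usual partner of KRT8, differed most at this stage. The NC libraries gave 13.4 and 13.0 FPKM, and the KD libraries 3.6 and 2.37 FPKM. The NC mean of 13.2 ± 0.283 FPKM was 4.43-fold the KD mean of 2.98 ± 0.869 FPKM (SD, n = 2 each). The log2 difference of -1.85 (SE 0.60, 95% interval -3.18 to -0.53) had an unadjusted p of 0.0106 and ranked 97th by p, but did not pass (limma adjusted p = 1.0, with the block 0.237).

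KRT8 itself overlapped, at 10.6 and 7.92 FPKM in the NC and at 12.4 and 9.12 FPKM in the KD 8/16-cell libraries (log2 difference 0.19, SE 0.73). The KRT18 level was therefore 1.26 and 1.64 times the KRT8 level in NC libraries and 0.290 and 0.260 times in KD libraries. In morulae the same ratio overlapped, with 1.67, 2.74 and 6.81 for NC and 3.38, 8.20 and 2.82 for KD libraries. The NC libraries held 3.5 and 2.34 FPKM of KRT19, the alternative type I partner, and the KD libraries 4.71 and 1.82 FPKM (log2 difference 0.05, SE 0.34).

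Among the factors, MSX2 spread little within each group. The NC libraries gave 3.88 and 3.81 FPKM and the KD libraries 1.72 and 1.74 FPKM (log2 difference -0.83, SE 0.58, limma adjusted p = 1.0, with the block 0.477). All groups share a single estimate of the spread in this fit, so the SE also carries the morula spread. The SDs of log2(FPKM + 1) for MSX2 were 0.0152 (NC) and 0.0068 (KD) at the 8/16-cell stage and 0.653 and 1.08 in morulae. The SE of KRT18 at the 8/16-cell stage carries its morula spread in the same way. The CDX2 values, 8.29 and 2.39 FPKM for NC and 1.68 and 2.82 FPKM for KD, overlapped, so that a single NC library carried the difference of -0.81 (SE 0.45). GATA3 values were 2.96 and 2.48 FPKM for NC and 0.708 and 2.42 FPKM for KD (-0.62, SE 0.48). In both of these genes 1 library stood away from the other 3.

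GATA2 overlapped at this stage, with NC values of 18.8 and 13.9 FPKM and KD values of 12.8 and 17.4 FPKM (log2 difference -0.11, SE 0.44). For TFAP2C the NC values were 129.5 and 122 FPKM and the KD values 107 and 116 FPKM, a difference of -0.17 (SE 0.17). For TFAP2A the NC values were 0.955 and 1.61 FPKM and the KD values 2.09 and 2.93 FPKM, a difference of 0.63 (SE 0.28, 95% interval 0.01 to 1.24). The point estimate of TFAP2A was thus above 0 at both stages, with no overlap between treatments at either, and it passed at neither.

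Whether the treatment difference itself differed between the stages was tested as an interaction. In the fit of group means 0 of the 9 genes passed, against 0.0170% of all tested genes, and 0 of 9 had an unadjusted p under 0.05 against 9.39% of all genes. The largest differences of differences (morula minus 8/16-cell) were 1.26 for KRT18 (SE 0.77, limma adjusted p = 0.605), -1.18 for KRT8 (limma adjusted p = 0.698), -1.07 for MSX2 (0.650) and -1.02 for CDX2 (0.585). With the block 0 passed, against 0.272%. The KRT18 difference at the 8/16-cell stage and the CDX2 difference at the morula stage were thus not shown to belong to 1 stage.

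The third comparison followed the genes from the 8/16-cell stage to the morula within each treatment. The table appears to join columns prepared separately for each stage, so any difference in that preparation enters these values. In NC embryos 5 of 9 genes passed, 2 higher and 3 lower in morulae, against 30.8% of all tested genes (12.6% higher and 18.2% lower). In KD embryos 2 of 9 passed, 1 in each direction, against 20.0% (5.22% higher and 14.8% lower).

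MSX2 rose in NC embryos from 3.85 ± 0.0510 FPKM (SD, n = 2) to 26.0 ± 12.5 FPKM (SD, n = 3), a log2 difference of 2.37 (SE 0.53, limma adjusted p = 0.00787). In KD embryos it went from 1.73 ± 0.0129 to 7.25 ± 6.63 FPKM, a difference of 1.304 (SE 0.53) that did not pass (limma adjusted p = 0.102). Its libraries did not overlap between stages in either treatment.

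KRT18 rose in both treatments. In NC embryos it went from 13.2 ± 0.283 FPKM (SD, n = 2) to 44.3 ± 17.3 FPKM (SD, n = 3), a log2 difference of 1.60 (SE 0.55, limma adjusted p = 0.0478). In KD embryos it went from 2.98 ± 0.869 to 33.6 ± 22.6 FPKM, a difference of 2.86 (SE 0.55, limma adjusted p = 0.00731). The KD mean at the morula stage was 11.3-fold its 8/16-cell mean. KRT8 passed in neither treatment in the fit of group means, with differences of 0.54 in NC (limma adjusted p = 0.566) and -0.64 in KD (0.516).

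TFAP2A fell in both treatments, from 1.29 ± 0.466 FPKM (SD, n = 2) to 0.288 ± 0.164 FPKM (SD, n = 3) in NC embryos (log2 difference -0.82, SE 0.26, limma adjusted p = 0.0335) and from 2.51 ± 0.593 to 0.883 ± 0.201 FPKM in KD embryos (-0.89, SE 0.26, limma adjusted p = 0.0342). TFAP2C fell in NC embryos from 126 ± 5.06 to 88.9 ± 5.71 FPKM (-0.50, SE 0.15, limma adjusted p = 0.0297), and was -0.33 in KD embryos (limma adjusted p = 0.147). KRT19 fell in NC embryos from 2.92 ± 0.819 to 0.963 ± 0.299 FPKM (-0.99, SE 0.31, limma adjusted p = 0.0336), and was -0.75 in KD embryos (0.110). KRT19 and KRT18, both type I keratins, thus moved in opposite directions between the NC stages.

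CDX2, GATA3 and GATA2 passed in neither treatment. The CDX2 difference between stages was 0.82 in NC (SE 0.41, limma adjusted p = 0.149) and -0.20 in KD embryos (0.754). GATA3 gave 0.33 and -0.37, and GATA2 gave -0.38 and -0.98 (limma adjusted p = 0.501 and 0.106).

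Single libraries bore on these counts. In NC embryos 1 gene (CDX2, limma adjusted p = 0.0366) passed without NC 8/16-cell replicate 1, 0 without NC 8/16-cell replicate 2, and 3 without NC morula replicate 1 or 2. The count over all tested genes went from 3626 to 1406 without NC 8/16-cell replicate 1 and to 1662 without replicate 2. The MSX2 call was lost in these 2 fits (limma adjusted p = 0.0601 and 0.0560) and in none of the other alternatives run.

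The KRT18 call in NC embryos was lost in 10 of 18 alternatives. These were equal-sum rescaling (limma adjusted p = 0.0577), no filter on low values (0.106), the MIR2887 pair left out (0.0609) and 7 of the 10 left-out libraries (up to 0.178), with log2 differences of 1.33 to 1.62. The MIR2887 pair is a pair of genes. Wherever it was left out, here and below, the remaining values were also rescaled to an equal sum per library. The NC calls of TFAP2A, TFAP2C and KRT19 were lost in 6 of 17, 5 of 18 and 6 of 17 alternatives. In KD embryos TFAP2A lost its call with each of the 5 KD libraries left out in turn (limma adjusted p of 0.0522 to 0.176), and in 9 of 17 alternatives in all. KRT18 lost its call without KD 8/16-cell replicate 2 (limma adjusted p = 0.0666), where KRT19 passed (0.0443).

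**Figure D4:**
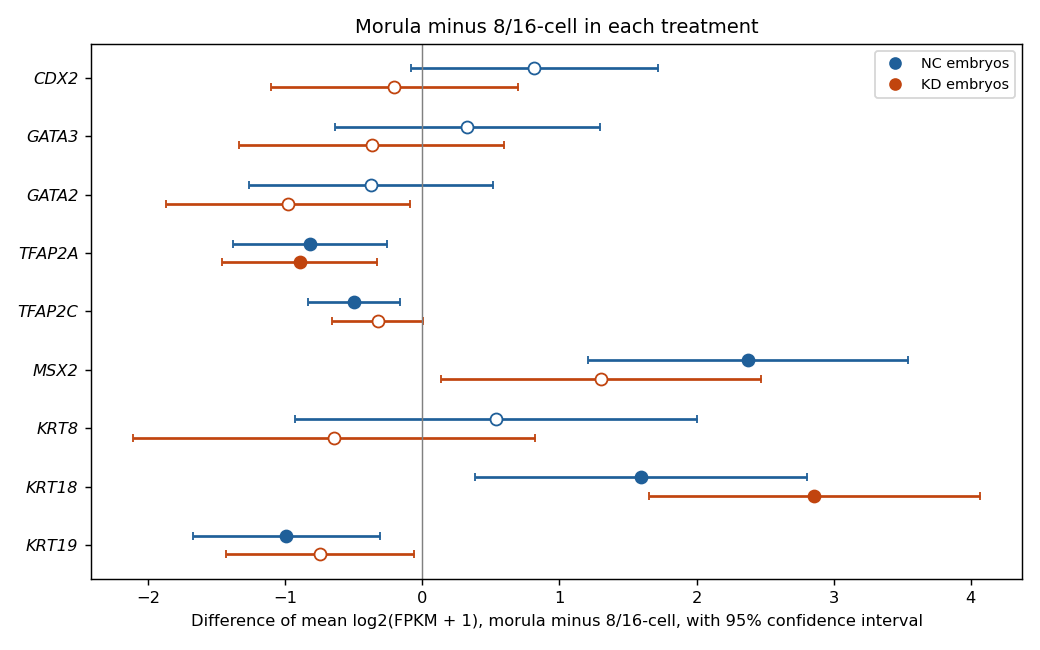
Points are the morula minus 8/16-cell difference of mean log2(FPKM + 1) for each gene in NC and KD embryos (2 libraries at the 8/16-cell stage and 3 at the morula stage), with 95% confidence intervals from limma, and filled points passed at an adjusted p of 0.05. MSX2 and KRT18 are filled to the right in NC embryos (2.37 and 1.60), TFAP2A, TFAP2C and KRT19 to the left, and in KD embryos only KRT18 and TFAP2A are filled.

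Other regulators of the trophectoderm were read from a list of 31 genes, of which 30 were in the table and 22 were tested. At the morula stage 0 passed between KD and NC without the block, against 0.697% of all tested genes. With the block 4 fell (GRHL1, YAP1, TFCP2L1 and, with a limma adjusted p of 0.0366, KLF6) and 1 rose (ID2), against 8.00% and 3.89%. A difference below 0 was found for 16 of 22, against 57.9% of all tested genes (median -0.21, against -0.08). GRHL1, an epithelial grainyhead factor, averaged 3.86 FPKM in NC morulae and 1.03 FPKM in KD morulae (log2 difference -1.23, SE 0.33, limma adjusted p = 0.0841, with the block 0.0261). YAP1, the Hippo coactivator, averaged 21.8 and 13.1 FPKM (-0.70, limma adjusted p = 0.137, with the block 0.0343). Its partner TEAD4, named here outside the selection rule, averaged 20.9 and 17.8 FPKM (-0.23, limma adjusted p = 0.548).

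TFCP2L1, another grainyhead-family factor, averaged 5.996 FPKM in NC morulae and 2.002 FPKM in KD morulae (log2 difference -1.09, limma adjusted p = 0.152, with the block 0.0224). ID2, an inhibitor of basic helix-loop-helix factors, went the other way, from 26.2 to 46.6 FPKM (0.92, limma adjusted p = 0.218, with the block 0.0110), and ID1 had a difference of 0.61 (limma adjusted p = 0.171, with the block 0.0624). Between the NC stages 8 of the 22 regulators rose, GRHL1 and TFCP2L1 among them, and 7 fell, against 12.6% and 18.2% of all tested genes. Between the KD stages 2 rose (TBX3 and WWTR1) and 5 fell (ELF3, EOMES, ID1, KLF4 and OVOL1), against 5.22% and 14.8%. ELF3 (-1.61), OVOL1 (-1.53), ID1 (-1.26) and KLF4 (-0.90) fell and TBX3 (1.11) rose in NC embryos, with limma adjusted p of 0.00179 to 0.00673.

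The partners that tie keratin filaments to desmosomes and to the nuclear envelope were read from a list of 22 genes, 20 of them tested. At the morula stage 3 fell in KD against NC, all of the desmosome, and 0 rose, against 0.697% of all tested genes in either direction. With the block the same 3 fell and 3 others rose (LMNA, VIM and, with a limma adjusted p of 0.0391, DSC3), against 8.00% and 3.89%. The median was -0.18, against -0.08 over all tested genes. DSG2, a desmosomal cadherin, was 44.7, 38.5 and 37.0 FPKM in NC morulae and 19.02, 11.98 and 9.40 FPKM in KD morulae (log2 difference -1.55, SE 0.22, limma adjusted p = 0.0298). DSP, the plakin that binds keratins, averaged 8.23 and 1.98 FPKM (-1.64, SE 0.23, limma adjusted p = 0.0294). PERP, a desmosomal membrane protein, averaged 18.2 and 3.87 FPKM (-2.07, SE 0.34, limma adjusted p = 0.0377). With RN18S1 as a covariate none of the 3 passed (limma adjusted p = 0.303 each), at log2 differences of -1.40 for DSG2, -1.38 for DSP and -1.96 for PERP. The calls were also lost after equal-sum rescaling (limma adjusted p = 0.0762 each), without a filter (0.0747 to 0.102), with the stage fitted alone (0.134 to 0.151) and with the MIR2887 pair left out (0.0669 each). All 3 passed without KD morula replicate 1, and none passed without any other of the 10 libraries in turn (limma adjusted p of 0.0501 to 0.184, log2 differences of -2.20 to -1.34).

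These 3 genes had also risen between the NC stages, DSG2 by 2.37, DSP by 1.52 and PERP by 1.67 on the log2 scale (limma adjusted p = 0.000314, 0.00248 and 0.00929), a comparison that shares the NC morula libraries with the treatment comparison. In NC embryos 6 of the 20 partners rose and 4 fell, against 12.6% and 18.2% of all tested genes. LMNB1 of the nuclear lamina (0.98) was among the first and DSC2, a desmosomal cadherin (-1.499), among the second. In KD embryos 1 rose (PKP3, a plakophilin) and 2 fell (DSC2 and PKP4), against 5.22% and 14.8%. LMNA and LMNB1 had differences of 0.64 and -0.44 between KD and NC morulae (limma adjusted p = 0.183 and 0.210, with the block 0.0168 and 0.0976).

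Of the other keratins, 52 genes were in the table, 8 were listed at 0 in every library and 10 were tested. KRT5, a type II keratin best known from basal epithelia, had the highest mean of all keratins, 42.5 FPKM over the 10 libraries. It was 113, 46.5 and 61.2 FPKM in NC morulae and 77.5, 35.6 and 10.7 FPKM in KD morulae, with overlap (log2 difference -1.11, SE 0.56, limma adjusted p = 0.282, with the block 0.0703). At the 8/16-cell stage its NC values were 31.0 and 25.3 FPKM and its KD values 11.4 and 13.3 FPKM (-1.12, SE 0.68, limma adjusted p = 1.0).

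KRT5 and KRT18 together made up 67.0% to 72.9% of the summed keratin FPKM in NC morulae and 44.4% to 71.6% in KD morulae. At the 8/16-cell stage they made up 51.5% and 56.5% in NC and 25.9% and 38.3% in KD libraries. All keratins summed to 239, 136 and 121 FPKM in NC morulae and 156, 136 and 48.0 FPKM in KD morulae. Between KD and NC morulae 0 of the 10 tested passed without the block, and with it 1 rose, against 3.89% of all tested genes. This gene, KRT6A, averaged 1.07 FPKM in NC morulae and 3.73 FPKM in KD morulae (log2 difference 1.17, SE 0.32, limma adjusted p = 0.0841, with the block 0.0134). From the 8/16-cell stage to the morula, KRT1 rose in NC embryos (1.86, limma adjusted p = 0.0179), and 2 rose in KD embryos, KRT80 (1.59, limma adjusted p = 0.0213) and KRT15. Of all tested genes 12.6% rose in NC and 5.22% in KD embryos.

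**Figure D5:**
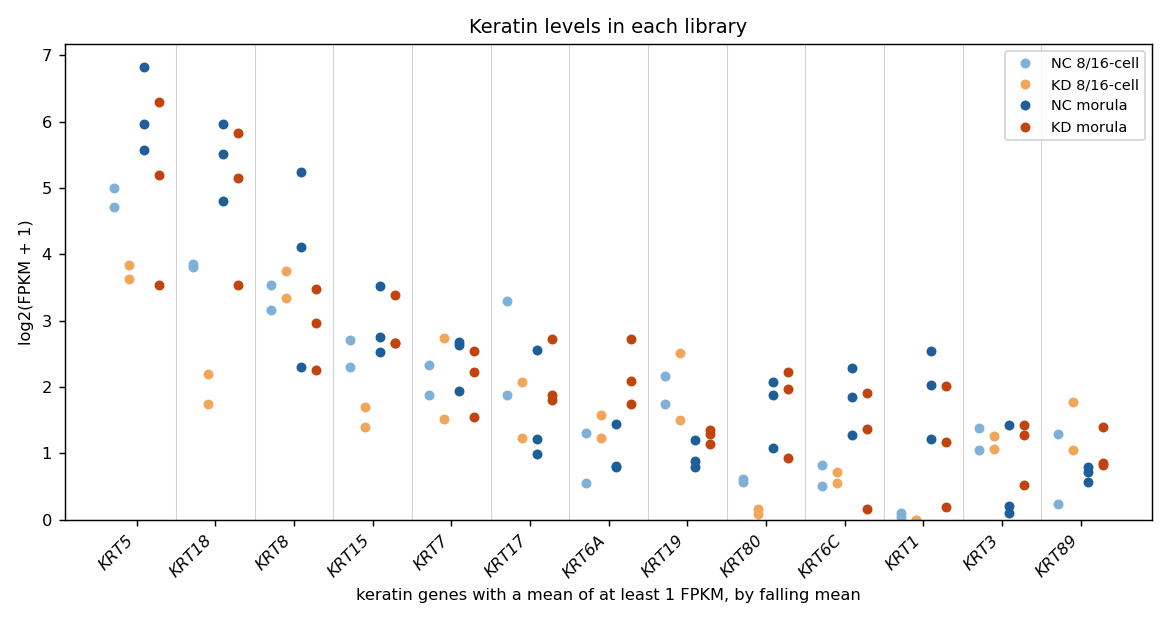
Levels of the 13 keratin genes averaging 1 FPKM or more are plotted as log2(FPKM + 1), 1 point per library and colour per group, ordered by their mean. KRT5, KRT18 and KRT8 lead, and the KRT18 points of the 2 KD 8/16-cell libraries (3.6 and 2.37 FPKM) lie below those of the 2 NC 8/16-cell libraries (13.4 and 13.0 FPKM).

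Relatives of the factors were read from a list of 10 genes of the CDX, GATA, AP-2 and MSX families, of which 3 were tested. MSX1, the close relative of MSX2, was 102.9 and 48.6 FPKM in NC 8/16-cell libraries and 6.42, 6.51 and 9.30 FPKM in NC morulae. It fell by 3.11 on the log2 scale (limma adjusted p = 0.000467) where MSX2 rose by 2.37. In KD embryos MSX1 averaged 39.3 and then 11.9 FPKM (log2 difference -1.63, limma adjusted p = 0.0137).

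GATA4 averaged 0.890 FPKM in NC morulae and 2.47 FPKM in KD morulae (log2 difference 0.89, limma adjusted p = 0.0760, with the block 0.0419). GATA6, a primitive endoderm factor, averaged 232 and 184 FPKM (-0.34, limma adjusted p = 0.419), far above GATA2 and GATA3 in both groups. Between KD and NC morulae 0 of the 3 passed without the block and GATA4 rose with it, against 3.89% of all tested genes.

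Most of the listed genes of the later trophoblast averaged under 1 FPKM. Of 19 listed products, 15 were in the table, 4 were listed at 0 in every library and 3 were tested. Between KD and NC morulae 0 passed without the block and 1 (CYP11A1) rose with it, against 3.89% of all tested genes. IFNT2, an interferon tau gene named here after its values were seen, ranged from 0.0906 to 0.974 FPKM over the 10 libraries. CYP11A1, the side-chain cleavage enzyme of steroid synthesis and also a cumulus marker, averaged 2.35 FPKM in NC morulae and 8.51 FPKM in KD morulae (log2 difference 1.46, limma adjusted p = 0.207, with the block 0.00630). Its 8/16-cell values were 6.996 and 7.85 FPKM with NC and 29.2 and 16.8 FPKM with KD, and HSD3B1, a later enzyme of the same pathway, averaged 2.10 and 6.82 FPKM.

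The opposing lineage was read from 19 factors of the inner cell mass and epiblast, 17 of them tested. In morulae 0 passed between KD and NC without the block, against 0.697% of all tested genes. With the block 2 rose (NANOG and KLF17) and 3 fell (OTX2, LIN28A and, with a limma adjusted p of 0.0329, POU5F1), against 3.89% and 8.00%. The median was -0.29, against -0.08 over all tested genes. NANOG, the pluripotency homeobox factor, was 6.48, 14.4 and 18.8 FPKM in NC morulae and 25.4, 39.0 and 37.8 FPKM in KD morulae (log2 difference 1.39, limma adjusted p = 0.0724, with the block 0.00506). CDX2 stood at 0.425 to 1.81 times the NANOG level in NC morulae and at 0.0324 to 0.0919 times in KD morulae.

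KLF17 had a difference of 0.92 (with the block, limma adjusted p = 0.00467), OTX2 of -1.67 (0.0355), LIN28A of -1.20 (0.0232) and FGF4 of -0.93 (0.132). The list thus held members on both sides of 0, and NANOG, KLF17 and POU5F1 are also on the list of cleavage embryo markers. Between the NC stages 5 of the 17 rose and 3 fell, against 12.6% and 18.2% of all tested genes. Between the KD stages 6 rose and 1 (DPPA3) fell, against 5.22% and 14.8%.

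Profiles were also compared over the 10 libraries, by the root mean square difference of log2(FPKM + 1) about each gene's mean, a description over libraries that share stage and treatment. The measure is not scaled by spread, so genes that vary little lie near each other whatever their pattern. Among the 9 genes the nearest pair was TFAP2C and KRT19 (0.38), followed by TFAP2A and TFAP2C (0.43). TFAP2C (SD 0.23), KRT19 (0.54) and TFAP2A (0.56) also had the lowest SDs of the 9 genes, so these pairs do not show a shared profile. GATA3 lay near both GATA2 (0.47) and CDX2 (0.48). The farthest pair was TFAP2A and KRT18 (1.87), and KRT8 and KRT18, which build 1 filament, were 1.41 apart.

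Outside the 9 genes, the nearest to CDX2 were ALDH1A1 (0.34), HSPB3 (0.35) and BCL3 (0.40). MSX2 lay nearest to LITAF (0.24), LOC515333 (0.36) and APOBR (0.37). The nearest to GATA3 were NID2 (0.31), LOC100848507 (0.34) and RRAS2 (0.35), and to GATA2 CCND2 (0.21), C18H16orf46 (0.27) and PPOX (0.27). TFAP2C was left out of this search because its SD over the libraries, 0.23, was below 0.5.

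TFAP2A had its nearest profiles in BIRC3 (0.14), ANLN (0.15) and HES4 (0.15). Among the keratins, KRT8 lay nearest to KIT (0.43), OSBPL7 (0.44) and ANP32A (0.44), KRT18 to AMOTL2 (0.52), MPZL2 (0.53) and KIRREL1 (0.54), and KRT19 to CDK10, PUSL1 and DRAP1 (0.19 each). KRT18 thus had no gene as near as those of the other genes searched.

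Markers of further cell types were read in the same way. Of the 8 cleavage embryo genes tested, 5 had a KD minus NC difference above 0 in morulae (median 0.56, against -0.08 over all tested genes). Without the block 0 of these passed. With it 4 rose (ARGFX, DUXA, KLF17 and NANOG) and 1 fell (POU5F1), against 3.89% and 8.00% of all tested genes. Between the NC stages those 4 fell together with DPPA3, and POU5F1 rose, against 18.2% and 12.6%. The oocyte list, 12 of 13 genes in the table and 10 tested, summed to 225 to 409 FPKM at the 8/16-cell stage and to 7.43 to 22.8 FPKM in morulae. From the 8/16-cell stage to the morula all 10 fell in both treatments, against 18.2% of all tested genes in NC and 14.8% in KD embryos. Between KD and NC morulae 9 of the 10 had a difference above 0, against 42.0%. Of these 10 oocyte genes 0 passed without the block, and 1 (MOS) rose with it, against 3.89%. The list of blood and immune cells had PTPRC, which marks all leukocytes, at 0 to 0.117 FPKM. It summed to 103 to 251 FPKM, mostly from HBA, a hemoglobin gene at 94.8 to 239 FPKM in every library. Sperm and testis markers summed to 0 to 12.4 FPKM. Oviduct epithelium markers summed to 16.0 to 58.1 FPKM, mostly from EPCAM, which early embryos also express.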

How the data were processed

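Poly(A) RNA of bovine embryos was sequenced in 10 libraries. The authors deposited a table of FPKM values per gene and library. The submitters' processing notes name the tools Trimmomatic, HISAT2, Cufflinks and featureCounts and, as builds, bosTau9 and ARS-UCD1.2. Tool versions and roles are not given in the sources used here. No counts were analysed, so read depth and counting error are unknown, and the labels do not state strand. Of 39911 lines with 28781 distinct symbols, the 11211 lines of 81 symbols that stand for several loci were left out. All 10 columns were matched to samples by treatment, stage and replicate.

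The 11761 genes averaging 1 FPKM or more were tested on log2(FPKM + 1) with limma 3.58.1 in R 4.3.3 (limma-trend, two-sided, 4 group means, with 6 residual and 4.63 prior degrees of freedom). Benjamini-Hochberg adjustment ran over all tested genes, with a threshold of 0.05. The fit of group means was tested on simulated data with independent noise in each library, unlike the morula libraries, which deviated together. The fit with the block was not tested in this way. A gene rose or fell only where it passed in the fit named. All differences are shares of a library and relative to its other transcripts.

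NC and KD libraries of a stage carry the same replicate numbers. In all 3 morula pairs, libraries of the same number departed from their group means together (r across genes = 0.3703, 0.325 and 0.312), so the numbers were taken to pair them. This pairing comes from the values that were then tested, not from the labels. The fit with the block has fewer residual degrees of freedom than the fit of group means. At the 8/16-cell stage r was 0.0558. At the morula stage the value with the block is given where it changes a call or a count. A block shared by the stages, for which the labels name no shared source, is given only among the alternatives.

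The 9 genes and all gene lists were chosen with earlier results of these data known, so no list is independent evidence. Named from each list were up to 5 genes with the smallest p in KD against NC morulae or between the NC stages, of which some are described, any others named for a count of 5 or fewer, and the 3 nearest profiles of each of the 9 genes. Alternatives covered scaling, pseudocount, low-value filter, block, RN18S1 as a covariate, a stage fitted alone and each library left out, with others chosen after seeing the data. Leaving out the MIR2887 pair of genes always came with rescaling the remaining values to an equal sum per library. All 9 symbols matched the RefSeq table of another assembly, used for names only.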

Additional observations from a re-analysis of the deposited data

How the results depend on the processing

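At the morula stage the count of the 9 genes that passed between KD and NC was 0, and 3 with the replicate block within the stage. It ran from 0 to 2 with each library left out. With the block it was 0 without pair 1, 1 without pair 2 and 0 without pair 3, alternatives chosen after seeing the data. At the 8/16-cell stage, where the block changed no call, and for the interaction, the count was 0 under all 20 and 18 alternatives. Between the NC stages it was 5, and 2 after rescaling to an equal sum, 3 after quantile normalization, 3 without a filter, 3 with genes averaging 5 FPKM or more (5 tested), 2 with the MIR2887 pair left out (chosen after seeing the data), 6 with a replicate block shared by the stages (KRT8 passed too, 1.09, limma adjusted p = 0.0271), and 0 to 5 with each library left out. Between the KD stages it was 2. The count was 1 after rescaling to an equal sum, by median-of-ratios scaling and with a pseudocount of 0.1. At an average of 5 FPKM or more and after dropping the MIR2887 pair it was also 1. With a replicate block shared by the stages it was 3 (MSX2 passed too, 1.54, limma adjusted p = 0.0236). It was 1 to 3 with each library left out. The cause of these changes in the counts was not tested.

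Signs turned for values that had not passed. At the 8/16-cell stage KRT8 (-0.17) and KRT19 (-0.26) turned after equal-sum rescaling and KRT19 (-0.040) without the MIR2887 pair. In morulae KRT8 (0.32) and KRT18 (0.073) turned with RN18S1 as a covariate, and TFAP2C (-0.075) with the block without pair 2. Between the KD stages CDX2 (0.088) and TFAP2C (0.15) turned after equal-sum rescaling. The TFAP2A interaction (the treatment difference in morulae minus that at the 8/16-cell stage) also turned. It was 0.23 after equal-sum rescaling, 0.47 with a pseudocount of 0.1 and 0.037 once the MIR2887 pair was dropped. With each library left out, the following ranges crossed 0. At the 8/16-cell stage they were GATA2 -0.32 to 0.10, KRT8 -0.011 to 0.40 and KRT19 -0.46 to 0.56. In morulae they were TFAP2C -0.052 to 0.036 and KRT18 -1.08 to 0.060. Between the NC stages they were GATA3 -0.14 to 0.59 and KRT8 -0.14 to 1.32. Between the KD stages they were CDX2 -0.46 to 0.050 and GATA3 -0.87 to 0.13. For the interaction they were TFAP2A -0.28 to 0.13 and KRT19 -0.26 to 0.75.

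Over all tested genes, 82 passed between KD and NC morulae. The count was 3 after equal-sum rescaling, 6 without a filter, 139 among genes averaging 5 FPKM or more and 1398 with the block. It was 0 with the stage fitted alone (2131 at an unadjusted p under 0.05) and 0 with RN18S1 as a covariate (1242 unadjusted). Once the MIR2887 pair of genes was dropped and the rest rescaled to an equal sum, 9 passed. With each library left out 0 to 527 passed. With the block this count was 0, 393 and 18 without pairs 1, 2 and 3. At the 8/16-cell stage 2 passed, and 11 without a filter, 4 with RN18S1, 1 with the stage alone, 0 once the MIR2887 pair was dropped and 2 to 9 with each library left out. For the interaction 2 passed, and 32 with the block and 0 without the MIR2887 pair. Between the NC stages 3626 passed, and 1406 to 3657 with each library left out. Between the KD stages 2355 passed, and 1328 after equal-sum rescaling and 1330 without the MIR2887 pair. Leaving out each library gave 693 to 2698, and a replicate block shared by the stages gave 3529. Equal-sum rescaling moved the median of all genes from 0.01 to -0.32 at the 8/16-cell stage and from -0.18 to 0.21 between the KD stages. For the interaction it moved the median from -0.10 to 0.29. The share of calls that were higher went from 20.7% to 40.6% in morulae with quantile normalization, from 40.9% to 52.1% between the NC stages with median-of-ratios scaling, and from 26.1% to 80.9% (equal sum), 52.2% (quantile), 52.6% (median-of-ratios) and 49.7% (MIR2887) between the KD stages.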
